A study of Mus musculus with 16 samples.

Results

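The genes described here carry the names of cytosolic ribosomal proteins, which does not show that each product is a subunit of the ribosome. RNA sequencing measured them in tail tendon fascicles of wild type mice and of mice with floxed Vhl and a tendon-lineage Cre. Members were chosen by symbol alone: names that begin with Rpl or Rps and a digit, with Rplp0, Rplp1, Rplp2 and Rpsa. Of 100 symbols that start in this way, 5 processed copies, 9 Rps6 kinase genes and Rps19bp1 were left out. The remaining 85 members, 52 with large subunit names and 33 with small subunit names, are part of 25719 listed genes. The expression filter on genotype kept 82 of them. It left out Rpl3l, Rpl10l and Rpl39l, 3 paralogs with few counts.

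The ribosome joins a large subunit, where peptide bonds form, to a small subunit that reads the message. Each protein is present in a single copy per ribosome, except for the stalk proteins P1 and P2, and cells make all of them in step. Their messages begin with a run of pyrimidines, the terminal oligopyrimidine (TOP) tract, through which the kinase mTOR and the binding protein LARP1 set how fast they are translated and how stable they are. Vhl encodes the substrate-binding part of a ubiquitin ligase that marks the subunits of the hypoxia-inducible factors for destruction, and hypoxia is known to restrain translation through mTOR.

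The series holds 8 wild type libraries and 8 libraries labelled knockout, which the design text describes as ScxCre;Vhlf/f. Cre under the control of Scx removes floxed Vhl sequence in Scx-lineage cells, so other cells of the strand keep the gene. All libraries came from total RNA of whole fascicles, with the cell type given as all cells of the tissue. Age, sex, strain and the Cre and floxed alleles of the wild type mice are not given in the labels. In such bulk samples fewer cells of a type and less RNA per cell cannot be told apart. The labels do not say that each library is a separate animal, so p-values measure the spread between these samples, which may be technical.

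Knockout libraries held 10488355 to 18753254 counts, wild type libraries 10792900 to 16379401. Vhl lay between 7.51 and 10.9 CPM (counts scaled to a common library size) in the knockout and between 14.1 and 25.8 CPM in the wild type, so no library went against its label. Tenocyte markers, which include Col1a1 and Col1a2, were abundant in every library. The summed level of all 11 lay between 83800 and 185000 CPM in knockout libraries, against 138000 to 388000 CPM in wild type libraries, with 8 lower and 1 higher past the threshold. The 15 skeletal muscle markers summed to between 428 and 25800 CPM in knockout libraries, against 102 to 11200 CPM in wild type libraries. Of these 15, 1 passed as higher and 0 as lower. The sum was highest in 4 libraries: knockout 6 (17800 CPM), knockout 7 (25800 CPM), knockout 8 (23400 CPM) and wild type 5 (11200 CPM). Endothelial markers, 10 genes, summed to between 25.5 and 526 CPM in knockout libraries, against 14.5 to 24.6 CPM in wild type libraries. Erythroid markers, 6 genes, summed to between 77.8 and 562 CPM in knockout libraries, against 15.1 to 50.7 CPM in wild type libraries. Mural markers, 9 genes, summed to between 274 and 1960 CPM in knockout libraries, against 209 to 388 CPM in wild type libraries. Of 7 mural markers tested, 5 were higher and 1 lower. Keratinocyte markers, 7 genes, summed to between 20.2 and 37.3 CPM in knockout libraries, against 39.5 to 104 CPM in wild type libraries, and all 3 tested were lower. Of all tested genes 22.7% were lower and 25.6% higher. Macrophage markers, 9 genes, summed to between 1330 and 1970 CPM in knockout libraries, against 1210 to 1770 CPM in wild type libraries. Knockout library 1 had the lowest level of all 16 libraries for 79 of the 82 tested members and knockout library 6 for the other 3, while wild type library 8 had the highest level for 55. Of these 7 marker lists, the keratinocyte list alone had a marker at 0 in all libraries, Krt1. The part of other cell types in the results that follow was not tested, apart from the muscle transcripts described below.

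Start windows of 13 members are shown because the TOP tract lies at the start of their messages. RefSeq start windows (build GRCm38.p6) were matched for 65 of the 85 members, using the first start listed for each gene. Sequences run from 15 bases before to 15 bases after the annotated start, and capitals mark the longest run of C or T on the sense strand. Such a run is not by itself a TOP tract, which begins at the first base of the message. The marked runs of Rplp0, Rpl4, Rpl23, Rpl36al, Rpl7l1 and Rpl9 end before the annotated start. Whether the annotated starts are those used in this tissue was not tested. The first 3 are the most abundant members with a window, the next 5 are among those with the largest decrease in the knockout, and the last 5 are among those with the highest log2 value.
Rplp0, chr5:115559452-115559481, plus strand: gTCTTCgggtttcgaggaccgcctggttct
Rpl4, chr9:64173372-64173401, plus strand: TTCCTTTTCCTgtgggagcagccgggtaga
Rps4x, chrX:102189377-102189406, minus strand: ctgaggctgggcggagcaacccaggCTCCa
Rpl39, chrX:37085208-37085237, minus strand: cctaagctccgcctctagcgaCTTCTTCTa
Rps21, chr2:180257364-180257393, plus strand: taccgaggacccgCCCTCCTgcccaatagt
Rpl22l1, chr3:28805493-28805522, plus strand: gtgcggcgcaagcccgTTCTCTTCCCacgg
Rpl23, chr11:97782425-97782454, minus strand: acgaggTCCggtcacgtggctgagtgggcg
Rpl36a, chrX:134585639-134585668, plus strand: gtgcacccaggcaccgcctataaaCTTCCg
Rpl36al, chr12:69184053-69184082, minus strand: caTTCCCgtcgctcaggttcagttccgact
Rpl7l1, chr17:46782642-46782671, minus strand: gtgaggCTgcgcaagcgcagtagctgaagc
Rpl28, chr7:4792950-4792979, plus strand: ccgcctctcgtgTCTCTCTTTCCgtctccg
Rps2, chr17:24720048-24720077, plus strand: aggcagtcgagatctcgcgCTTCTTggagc
Rpl9, chr5:65391417-65391446, minus strand: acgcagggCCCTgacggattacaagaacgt

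A run of at least 8 pyrimidines lay anywhere in this 30-base window for 25 of the 65 members (38.5%). The same held for 11.9% of 27025 genes with a start window. The annotated start base was C for 33.8% of members and 16.2% of all genes. Runs of at least 8 were found in 18 of 45 members that were lower in the knockout (40%) and in 7 of 17 that did not pass the test (41.2%). The ETS-type motif CCGGAAG, searched on both strands of the 300-base window from 250 bases before to 50 after the start, was present for 38.5% of members and 9.12% of all genes. The core letters of the hypoxia response element, ACGTG, were present on either strand for 27.7% of members and 19.7% of all genes, and the related GCGTG for 55.4% and 32.5%. CACGTG, which contains ACGTG, was present for 7.69% and 7.24%.

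Ribosomal protein transcripts were a small part of all counts, and their share overlapped between the genotypes. They took 2.15% ± 0.304 of knockout counts, against 2.23% ± 0.435 of wild type counts (SD, n = 8), a difference of -0.0884 percentage points that is smaller than the spread between libraries. Shares lay between 1.56% and 2.52% in knockout libraries, against 1.68% to 2.80% in wild type libraries, with wide overlap. Type I collagen moved the denominator: Col1a1 and Col1a2 took between 7.70% and 18.4% of knockout counts and between 12% and 29.2% of wild type counts. Of the counts outside these 2 genes, ribosomal protein genes took 2.47% ± 0.287 in knockout libraries, against 2.89% ± 0.415 in wild type libraries (SD, n = 8).

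On the TMM scale, which sets libraries level over the bulk of genes, the members summed to 19300 ± 2650 CPM in knockout libraries, against 24700 ± 3600 CPM in wild type libraries (SD, n = 8). Knockout libraries lay between 14290 and 23340 CPM and wild type libraries between 20290 and 29950 CPM. Knockout library 1 was the lowest of all, and wild type library 8 the highest. The groups overlapped: wild type libraries 1, 2 and 4 (20290, 21030 and 20910 CPM) lay within the knockout range. The same libraries had the lowest shares of the wild type group. Counts of small subunit genes were 0.674 to 0.694 times those of large subunit genes in knockout libraries, against 0.682 to 0.720 times in wild type libraries.

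**Figure D1:**
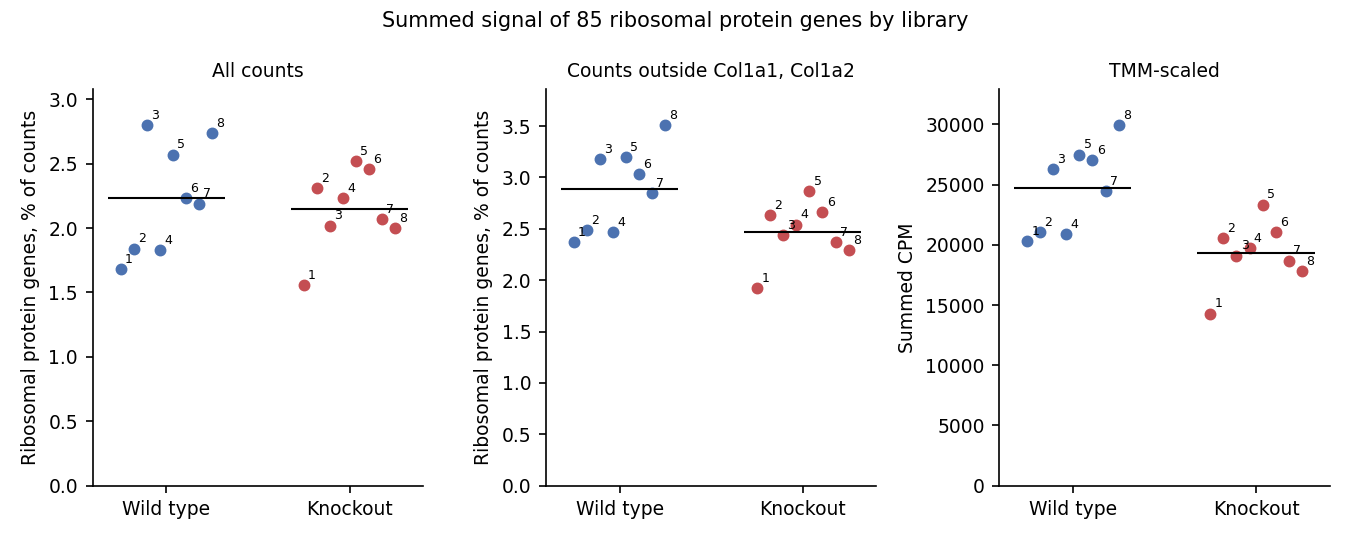
Summed signal of the 85 ribosomal protein genes in each library, as a percentage of all counts (left), as a percentage of counts outside Col1a1 and Col1a2 (middle) and as TMM-scaled CPM (right). Points are libraries with their replicate numbers and lines are group means. Knockout library 1 is lowest in each panel, and the groups overlap in all 3.

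Single members mostly moved down on the TMM scale. Of 82 tested members, 56 were lower in the knockout (edgeR quasi-likelihood test, Benjamini-Hochberg adjusted p under 0.05) and 0 were higher, where 22.7% of all 14803 tested genes were lower and 25.6% higher (48.3% in either direction). No member was higher at an unadjusted p under 0.05 in edgeR, and 0 were higher and 64 lower by DESeq2, with 24.9% of all tested genes lower. The median log2 fold change of the members was -0.33, against 0.02 for all tested genes. Values ran from -0.91 for Rpl39 to 0.23 for Rpl36al, and 79 of the 82 were below 0, as were 47.9% of all tested genes. Of the 26 that did not pass, 23 had a value below 0.

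These counts depend on how libraries are scaled. With total counts, 4 members were lower and 3 higher, where 9.56% of all tested genes were lower and 55.9% higher. The members' median was then -0.04 and that of all tested genes 0.32. A change of scaling moves all genes by nearly the same amount, so the gap between the medians (-0.35 with TMM) is nearly the same by construction on either scale and is no check of the result. The lower members with total counts were Rpl39 (-0.63), Rps21 (-0.43), Rps14 (-0.34) and Rpl23 (-0.30). The higher members were Rpl36al (0.52), Rpl7l1 (0.38) and Rps20 (0.37).

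**Figure D2:**
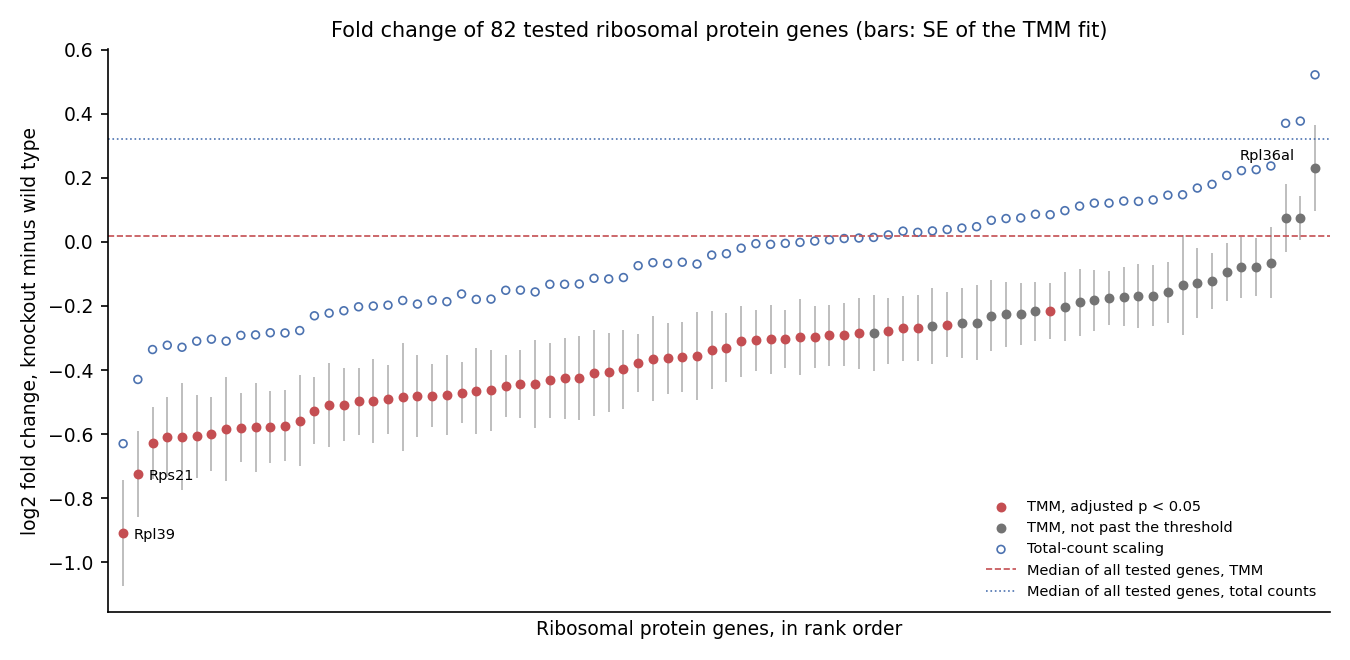
Log2 fold change, knockout minus wild type, of the 82 tested ribosomal protein genes in rank order, with SE bars for the TMM fit (filled) and values with total-count scaling (open). Dashed and dotted lines are the medians of all tested genes on the 2 scales, at 0.02 and 0.32. The open points lie above the filled ones by nearly the same amount as the dotted line lies above the dashed line.

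The number of calls depended in part on single libraries. Without knockout library 1, 46 of the 56 lower members remained past the threshold, and without wild type library 8, 43 did; the members' median was -0.28 and -0.28. Without the 4 libraries with the most muscle transcripts (knockout 6, 7 and 8 and wild type 5), 25 members were lower. All 25 were among the 56 of the main fit, and 19.0% of all tested genes were lower. All 56 still had a log2 value below 0, which is no separate check, as the 2 fits share most libraries. The median of the members was -0.31, and 4 fewer libraries were tested. With the muscle marker score as a covariate, 42 of the 82 tested members were lower, all among the 56, at a median of -0.31. Of all tested genes 20.3% were lower in that fit.

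Most genes of the large subunit and most of the small subunit were lower. Of 49 tested large subunit genes 32 were lower, with a median log2 fold change of -0.31, and of 33 small subunit genes 24 were lower, with a median of -0.36. With total counts 2 of each were lower, and the medians were -0.02 and -0.06. Over all tested genes 22.7% were lower with TMM and 9.56% with total counts.

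Rpl39 encodes a very short protein that lines the exit tunnel of the large subunit. It was measured at between 67.1 and 128 CPM in knockout libraries (median 100), against 123 to 244 CPM (median 174) in wild type libraries. Only the highest knockout library, number 3, exceeded the lowest wild type library, number 4. Rpl39 (ENSMUSG00000079641, chromosome X) fell by 0.91 on the log2 scale (SE 0.166, edgeR quasi-likelihood, Benjamini-Hochberg adjusted p = 1.88e-04). Adjusted p-values over the 27 alternatives lay between 8.15e-08 and 0.00637.

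Rps14 encodes a small subunit protein at the mRNA exit channel; loss of a copy of the human gene underlies the anaemia of a myelodysplastic syndrome. It was measured at between 219 and 347 CPM in knockout libraries (median 304), against 370 to 576 CPM (median 454) in wild type libraries. It was the 1 member whose knockout libraries all lay below all wild type libraries, where 8.61% of all tested genes did so. Rps14 (ENSMUSG00000024608, chromosome 18) fell by 0.63 (SE 0.111, edgeR quasi-likelihood, Benjamini-Hochberg adjusted p = 1.00e-04).

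Rps21, a component of the small subunit, lay between 71.0 and 128 CPM in knockout libraries (median 90.2), against 115 to 201 CPM (median 161) in wild type libraries. Its log2 fold change was -0.72 (SE 0.134, adjusted p = 1.88e-04, edgeR quasi-likelihood test). Rps27a, made as a fusion with ubiquitin, differed by -0.61, and Rps29 by -0.61. Knockout medians of Rps27a and Rps29 were 173 and 216 CPM, wild type medians 263 and 322 CPM, and the groups overlapped for both. Exons of Rps27a overlap Clhc1 on the other strand, so its counts are uncertain.

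The acidic stalk recruits elongation factors to the large subunit. All 4 genes of its list were lower with TMM, where 22.7% of all tested genes were lower. Rplp0, the base protein of the stalk and the member with the highest CPM, lay between 549 and 844 CPM in knockout libraries (median 685), against 813 to 1120 CPM (median 945) in wild type libraries. Its highest knockout libraries, 5 and 6, exceeded the lowest wild type library, 3. Rplp0 (ENSMUSG00000067274, chromosome 5) fell by 0.47 (SE 0.0956, edgeR quasi-likelihood, Benjamini-Hochberg adjusted p = 4.16e-04). Rplp1 fell by 0.58, Rplp2 by 0.30 and Rpl12, which binds beside the stalk, by 0.45. Rplp2 also lost its call with the muscle covariate and without the 4 libraries with the most muscle transcripts. None of the 4 passed with total counts, where Rplp2 stood at 0.003 and the others between -0.28 and -0.15.

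Rpl5 and Rpl11 form a particle with the smallest ribosomal RNA and can bind Mdm2 when ribosome assembly fails. Rpl11 fell by 0.34 (SE 0.122, edgeR quasi-likelihood test, adjusted p = 0.0277), from a wild type median of 221 CPM to 179 CPM. The call was lost with total counts (-0.04), with the muscle covariate (-0.25), without the 4 libraries with the most muscle transcripts and without knockout library 1, wild type library 6 or wild type library 8. Rpl5 lay between 223 and 361 CPM in knockout libraries, against 288 to 391 CPM in wild type libraries, and did not pass (log2 value -0.23, SE 0.0980, adjusted p = 0.0651), although it passed in 8 of the alternatives, DESeq2 among them. Mdm2, which encodes the ligase of p53 and is itself a p53 target, rose by 0.64 (adjusted p = 6.11e-09), from between 33.3 and 38 CPM to between 50.8 and 62.5 CPM. Cdkn1a, the cell cycle inhibitor induced by p53, rose by 1.76 without overlap between the groups. The p53 list held 12 genes, which were p53 targets and Trp53, the gene of p53 itself. Of these 7 were higher and 1 lower, and 8 and 0 with total counts. Among all tested genes 25.6% were higher and 22.7% lower with TMM, and 55.9% and 9.56% with total counts.

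At the rim of the exit tunnel, where new chains leave, 6 of 8 genes were lower: Rpl39, Rpl22 (-0.58), Rpl31 (-0.41), Rpl26 (-0.40), Rpl35 (-0.36) and Rpl23a (-0.31). Rpl17 (-0.25) and Rpl19 (-0.19) did not pass. With total counts Rpl39 alone of the 8 was lower, and without the 4 libraries with the most muscle transcripts Rpl31, Rpl26, Rpl35 and Rpl23a no longer passed. Rpl35 also lost its call without any of 9 single libraries, and Rpl23a with the muscle covariate and without wild type library 8. Rpl22, which binds RNA outside the ribosome too, lay between 70.4 and 106 CPM in knockout libraries, against 98.1 to 169 CPM in wild type libraries. At the mRNA entry side of the small subunit, 1 of 4 genes, Rps10 (-0.28), was lower, and Rps2 (-0.09), Rps3 (-0.17) and Rps20 (0.07) did not pass. With total counts Rps20 was higher and the other 3 did not pass. The Rps10 call was also lost with the muscle covariate, without the 4 libraries with the most muscle transcripts and without any of 6 single libraries. Of 18 genes mutated in Diamond-Blackfan anaemia, an inherited failure of red cell formation, 15 were lower with TMM and 0 with total counts, where the median was -0.09; over all tested genes 22.7% and 9.56% were lower. Rps19, the gene most often mutated in it, was among the 3 that did not pass (log2 value -0.13, SE 0.110, edgeR quasi-likelihood test, adjusted p = 0.356).

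Of 8 measured paralogs 5 were tested, of which 2 were lower and 0 higher with TMM, and 0 lower and 2 higher (Rpl36al and Rpl7l1) with total counts. The shares of all tested genes were 22.7% lower and 25.6% higher with TMM, and 9.56% and 55.9% with total counts. Rpl22l1, the paralog of Rpl22, fell by 0.61 and Rps27rt, a retrogene copy of Rps27, by 0.49 (edgeR quasi-likelihood test, adjusted p = 0.00551 and 0.0237). The Rps27rt call was lost with the replicate block, with the muscle covariate, with total counts, without wild type library 8 and without the 4 libraries with the most muscle transcripts. The Rpl22l1 call was lost with total counts and without those 4 libraries. Rps27l, a p53 target, lay between 23.1 and 51.9 CPM in knockout libraries, against 30.8 to 58.1 CPM in wild type libraries (log2 value -0.13, adjusted p = 0.504). Rpl36al lay between 26.2 and 59.5 CPM in knockout libraries, against 28.3 to 44.4 CPM in wild type libraries (0.23, SE 0.135, adjusted p = 0.168), whereas Rpl36a, its near relative on chromosome X, fell by 0.58 (adjusted p = 0.00650). Rpl36al passed as higher without knockout library 1, at 0.30. Rpl7l1, a homologue of Rpl7, was among the steadiest, at 33.8 to 46.4 CPM in the knockout group, against 34.6 to 38.9 CPM in the wild type group (0.07, adjusted p = 0.396). Reads of paralogs and of the many processed copies of these genes can be assigned to either source, so values of single members are uncertain to that extent.

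Rpl3l, the paralog that takes the place of Rpl3 in skeletal muscle and heart, was not tested. Wild type library 5 held 9.41 CPM. Knockout library 6 held 6.89 CPM, library 8 held 5.60 CPM and library 7 held 3.78 CPM, with at most 0.648 CPM in the other knockout libraries. In the other wild type libraries it lay between 0 and 2.69 CPM. The 4 highest libraries were the 4 with the highest muscle markers. Rpl39l, known from testis, had 28 counts in the 8 knockout libraries together and 2 in the wild type, at most 10 in a library. Rpl10l, also a testis gene, had 0 counts in every library, which allows up to 3 counts or between 0.145 and 0.336 CPM depending on the library (counting error only).

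**Figure D3:**
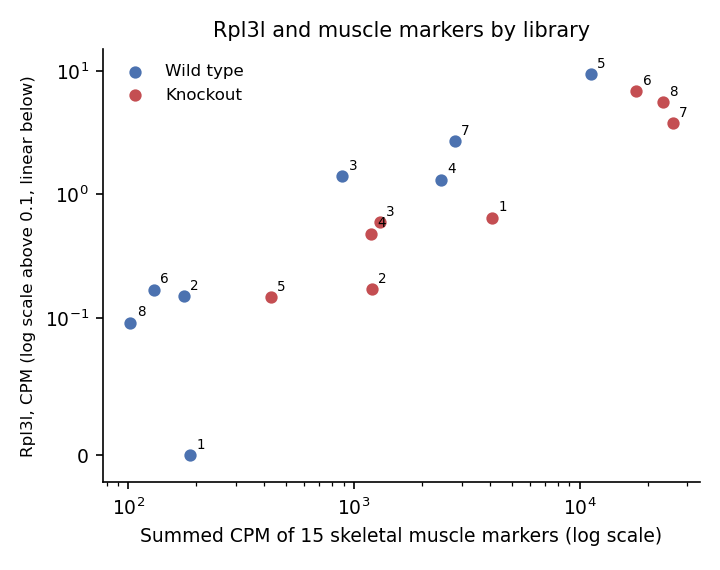
Level of Rpl3l (CPM, log axis above 0.1 and linear below) against the summed CPM of 15 skeletal muscle markers (log axis) in each library, labelled by replicate number. Knockout libraries 6, 7 and 8 and wild type library 5 are highest on both axes.

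Levels between genes were compared as CPM per kilobase of annotated transcript. In the wild type, tested members lay between 28.3 (Rpl7l1) and 1220 CPM per kilobase (Rplp1). The highest after Rplp1 were Rps28 (1140), Rps12 (997) and Rps27 (914), and the paralogs Rpl7l1, Rpl22l1, Rps27rt and Rpl36al were among the 5 lowest. Rps20 was the other, at 60.9, with an annotated transcript of 3706 bases that is much longer than its coding sequence of 357 bases. In the knockout Rps28 was highest (846 CPM per kilobase), before Rplp1 (814), and Rpl22l1 was lowest (22.3).

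Setting each library level on the summed ribosomal protein counts removed the common shift and showed which members changed their part of the whole. By this measure 9 members took a smaller part and 10 a larger part in the knockout (edgeR quasi-likelihood test, Benjamini-Hochberg adjusted p under 0.05), where 7.39% of all tested genes were lower and 52.8% higher. The smaller were Rpl39 (-0.53), Rps21 (-0.35), Rps14 (-0.27), Rpl23 (-0.25), Rps27a (-0.24), Rps29 (-0.24), Rplp1 (-0.22), Rpl34 (-0.22) and Rps7 (-0.21). The larger were Rpl36al (0.57), Rps20 (0.42), Rpl7l1 (0.41), Rpl28 (0.28), Rpl29 (0.28), Rpl8 (0.26), Rps2 (0.25), Rpl9 (0.23), Rps19 (0.22) and 1 other member. The other 63 differed from the whole by less than the test could call. Parts of a fixed sum cannot all move in the same direction, so the split into smaller and larger parts follows from this scaling.

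Short members had lower log2 values than long ones. The 28 members with coding sequences of 75 to 396 bases had a median log2 fold change of -0.48, with 23 lower, and the 27 of 576 to 1260 bases a median of -0.23, with 12 lower. Across the 82 members Spearman's correlation of fold change with coding length was 0.441, and with coding GC content it was 0.245. These values share the same 16 libraries, and genes are not independent replicates. Across 13597 tested genes with a coding sequence the correlations were 0.064 and 0.016. Rpl41, with the shortest coding sequence (75 bases), did not follow the order, at -0.26 (adjusted p = 0.0749). When each library was adjusted for coding GC content and length, 61 members were lower, where 24.5% of all tested genes were, and the correlation with length over the members was 0.321. The part of RNA quality or fragment size in this pattern was not tested.

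**Figure D4:**
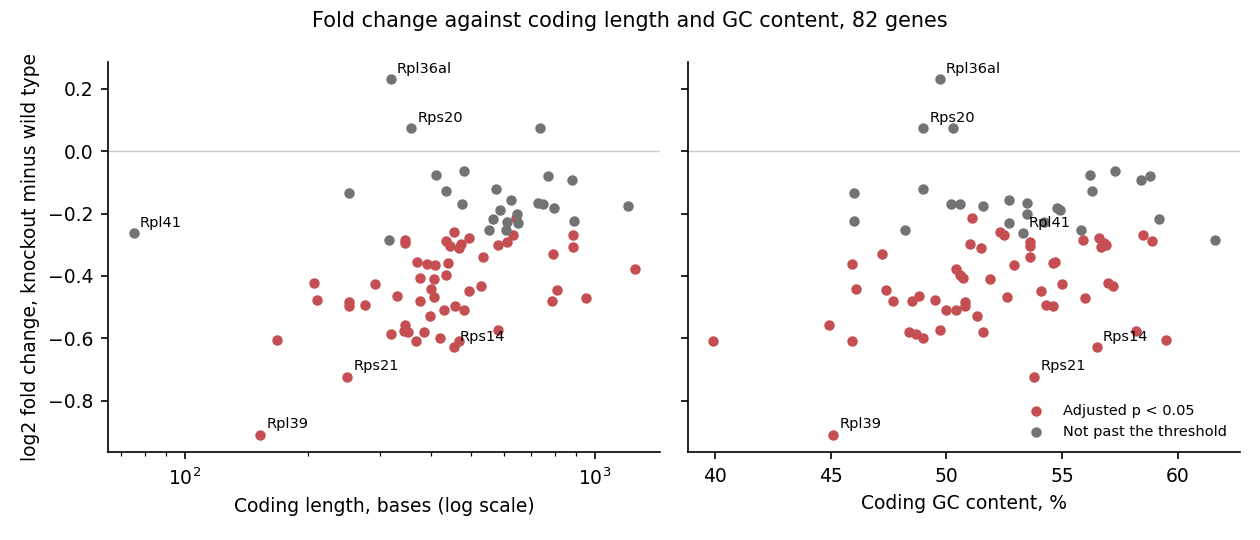
Log2 fold change, knockout minus wild type, of 82 ribosomal protein genes against coding length (left, log axis) and coding GC content (right), coloured by whether the adjusted p was under 0.05. Rpl39, Rps21 and other short genes lie lowest, and Rpl41, the shortest, at -0.26.

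Fau, which encodes a ubiquitin-like protein fused to a small subunit protein and whose symbol falls outside the rule, lay between 206 and 349 CPM in knockout libraries (median 261), against 142 to 223 CPM (median 176) in wild type libraries. Only wild type library 8 exceeded the lowest knockout library. Fau rose by 0.63 (SE 0.110, edgeR quasi-likelihood, Benjamini-Hochberg adjusted p = 8.61e-05), and adjusted p-values over the 27 alternatives lay between 1.73e-09 and 7.02e-04. Rack1, which encodes a scaffold on the small subunit, had a log2 value of -0.14 and did not pass (adjusted p = 0.147). With total counts Fau stood at 0.93 and Rack1 at 0.16.

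Of 19 tested other genes with TOP messages, 8 were lower and 1, Fau, was higher with TMM, at a median of -0.25. With total counts the balance turned: 0 were lower and 4 higher, at a median of 0.05. Among all tested genes 22.7% were lower and 25.6% higher with TMM, and 9.56% and 55.9% with total counts. Tpt1, the translationally controlled tumour protein, fell by 0.57 (SE 0.111, edgeR quasi-likelihood test, adjusted p = 2.60e-04), from between 1230 and 1820 CPM to between 737 and 1210 CPM, without overlap. Eef1b2, part of the exchange factor for the elongation factor that delivers tRNA, fell by 0.54. Neither passed with total counts (-0.28 and -0.24). Mitochondrial ribosomal protein genes, which have a separate origin, had a median of 0.06 over 78 genes: 8 were higher, 3 lower and 67 did not pass. Mrpl54 rose by 0.55 (edgeR quasi-likelihood test, adjusted p = 8.24e-04). With total counts 57 of the 78 were higher, at a median of 0.36, where the median of all tested genes was 0.32.

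Genes that build ribosomes were higher more often than lower on both scales. Of 38 assembly genes 20 were higher and 3 lower, with a median of 0.20, and with total counts 31 were higher and 0 lower, at 0.50. Among all tested genes 25.6% were higher and 22.7% lower with TMM. With total counts most genes of any kind lay higher: 55.9% of all tested genes passed as higher and 9.56% as lower. Nob1, the nuclease that finishes the small subunit RNA, rose by 0.59 (SE 0.0830, edgeR quasi-likelihood test, adjusted p = 7.72e-06), from between 12.8 and 17.5 CPM to between 18.5 and 27.7 CPM, without overlap. Utp20 rose by 0.37 and Tcof1, a nucleolar factor for ribosomal RNA transcription, by 0.39. Of 12 RNA polymerase I genes 4 were higher and 2 lower, and 8 and 0 with total counts. Polr1a, the largest subunit, rose by 0.67 (adjusted p = 1.57e-06) without overlap, and Ubtf (-0.21) and Polr1d (-0.33) were lower, though not with total counts (0.09 and -0.02) or with the muscle covariate. Cell cycle genes, all 15 of the list, were higher too (median 2.01).

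Translation factors moved in both directions with TMM. Of 37 initiation factor genes 8 were higher and 7 lower, with a median of -0.04. With total counts 21 were higher and 1 lower, at 0.26, where the median of all tested genes was 0.32. Among all tested genes 25.6% were higher and 22.7% lower with TMM, and 55.9% and 9.56% with total counts. The counts of higher initiation factors were near these shares on both scales. Eif1b rose by 0.91 and Eif1a by 0.82, both without overlap, and Eif4a2, a helicase, fell by 0.39, or by 0.09 with total counts, which did not pass. Of 12 elongation and release factor genes 1 was higher and 5 lower, and with total counts 5 were higher and 1 lower. Eef2k, the kinase that inhibits the elongation factor of translocation, fell by 0.78 (SE 0.0773, edgeR quasi-likelihood test, adjusted p = 7.42e-08), from between 119 and 167 CPM to between 67.9 and 89.4 CPM.

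**Figure D5:**
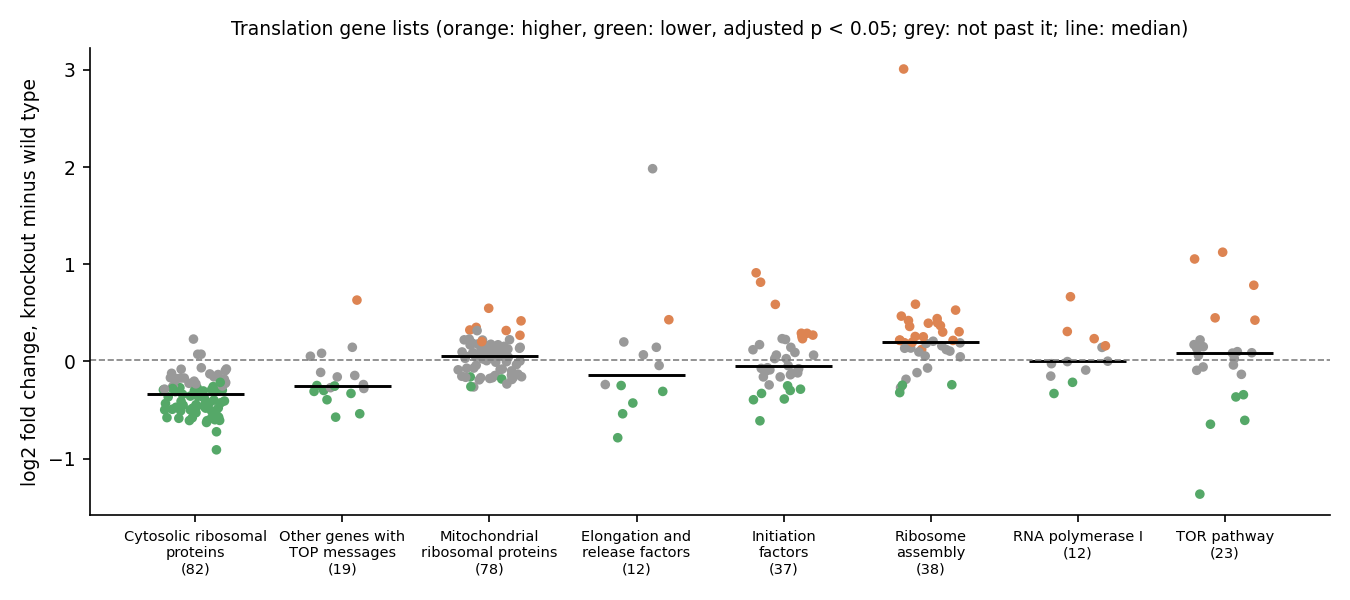
Log2 fold change, knockout minus wild type, of tested genes in 8 lists of the translation machinery on the TMM scale, with the number of genes in brackets. Black lines are list medians and the dashed line is the median of all tested genes. Cytosolic ribosomal proteins have the lowest median (-0.33) and ribosome assembly genes the highest (0.20).

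Of 23 tested genes in the TOR list, 5 were higher and 5 lower with TMM. With total counts 15 were higher and 2 lower. Among all tested genes 25.6% were higher and 22.7% lower with TMM, and 55.9% and 9.56% with total counts. Mtor (0.06), Rps6kb1 (-0.06, adjusted p = 0.393) and Larp1 (0.10, adjusted p = 0.239) did not pass with TMM (edgeR quasi-likelihood test). All 3 passed as higher with total counts, at 0.37, 0.25 and 0.41, where the median of all tested genes was 0.32. Ddit4, an mTOR inhibitor known as a hypoxia target, varied widely: between 45.0 and 202 CPM in knockout libraries, against 38.6 to 169 CPM in wild type libraries (0.09, SE 0.405, adjusted p = 0.873). Eif4ebp1, which holds back cap-dependent initiation, rose by 1.05 (adjusted p = 2.79e-06), from between 35.0 and 66.1 CPM to between 85.9 and 138 CPM. Sesn2, an mTOR inhibitor induced by stress, rose by 1.12, and Pdcd4, an inhibitor of the initiation helicase, fell by 0.65. Myc, a driver of ribosome production, rose by 0.78 (adjusted p = 9.92e-05), from a wild type median of 9.18 CPM to 16.3 CPM.

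The integrated stress response slows initiation under stress. Its 12 listed genes matched 13 tested gene IDs, so a symbol had more than 1 ID. Of these IDs 6 were higher and 1 lower, and 12 and 0 with total counts. Among all tested genes 25.6% were higher and 22.7% lower with TMM, and 55.9% and 9.56% with total counts. Trib3 rose by 3.45 (SE 0.144, edgeR quasi-likelihood, Benjamini-Hochberg adjusted p = 3.55e-13), from between 2.58 and 4.25 CPM to between 24.4 and 43.6 CPM. Atf4, the transcription factor of this response, rose by 0.48, and Ppp1r15a, which helps to end it, by 0.95. Of 8 immediate early genes 2 were higher, Atf3 (1.39) and Junb (0.83), and 4 with total counts. These immediate early counts were near the shares of all tested genes on both scales. Jun did not pass with TMM (0.41, adjusted p = 0.0555).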

How the data were processed

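RNA was sequenced from 8 knockout and 8 wild type libraries of tail tendon fascicles. The deposited values are whole-number counts per gene and library, 1 table each; the submitters' processing notes name kallisto, featureCounts and GRCm39, but which tool made the counts, the annotation and the use of strand are not given in the sources used here. Of 25719 gene IDs, 25614 matched a symbol. The authors deposited no normalization.

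Counts were tested with edgeR 4.0.16 in R 4.3.3 (TMM, filterByExpr, robust quasi-likelihood F test, two-sided, genotype only), with Benjamini-Hochberg adjustment over 14803 genes and a threshold of 0.05. Fold changes are knockout minus wild type. SE is the size of the log2 fold change divided by the square root of F. CPM used TMM-scaled library sizes. DESeq2 1.42.0, other scalings, filters, a replicate block, a muscle covariate and leaving out each library were alternatives. The adjustment for coding GC content and length and the fit without 4 libraries were chosen after seeing the data. Coding sequences came from GENCODE M21 and start windows from RefSeq, both on GRCm38. Exons of 39 members overlap another annotated gene, 19 of them on the other strand, so these counts are uncertain. On simulated counts for 14752 genes, 100 had a true log2 change of 0.5, and 43% of these were called. A further 99 had a change of 1, of which 89.9% were called, and 2.94% of calls were false. In the libraries themselves a far larger part of genes passed (48.3% of 14803). Whether the simulated rates hold there, or for members that move together within a library, was not tested.

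Members and lists were chosen with earlier results of these data known. Named members are the 5 most abundant, the 6 largest decreases and increases past the threshold, and all members of the paralog, stalk, Rpl5 and Rpl11, and tunnel exit lists. Other lists give up to 3 genes with the smallest adjusted p, plus genes set by name. Further members were named after their values were seen. Some genes that this rule or a count covers are not reported here. Libraries of a group differed by more than sampling noise (lowest chi-square per degree of freedom 6.56).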

Additional observations from a re-analysis of the deposited data

Results flagged for a closer look

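Of 138 checks of named genes for a library far from the rest of its group, 7 stood out. Independent checks would give about 6.9 at 1 in 20. Members moved together within a library, so the checks are not independent and this number is no test. Knockout library 1 accounted for 4 of the 7, all low. Its log2 CPM was 7.17 for Rpl31, where the next library stood at 7.73. It was 7.21 for Rpl23a (next 7.71), 7.37 for Rpl17 (next 7.80) and 7.27 for Rps27 (next 7.69). Wild type library 3 was high for Eif5a2, at 5.39 (next 5.10). Wild type library 1 was high for Ubtf, at 7.50 (next 7.30). Wild type library 4 was high for Trib3, at 2.14 (next 1.75).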

How the results depend on the processing

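The number of members called and their median depended on the scaling. With total counts 3 were higher, 4 lower and the median was -0.039. With scaling to the summed ribosomal protein counts 10 were higher, 9 lower and the median was 0.0169. Without the 4 libraries with the most muscle transcripts 25 were lower. With no expression filter, and with the GC and length adjustment, 1 was higher. Leaving out each library gave 43 to 64 lower, 0 to 1 higher and medians from -0.38 to -0.28. The difference in share was -0.638 points outside the 20 most abundant genes, and from -0.168 to -0.00534 when each library was left out. Of the 82 tested members, 79 had a log2 value below 0 with TMM and 47 with total counts. Signs were compared singly only for 31 members and 37 other genes, so the 2 lists that follow leave out further members. Among the genes compared, log2 values turned positive with total counts for Rpl10 (0.0849), Rps27l (0.15), Rplp2 (0.0026), Rpl5 (0.0747), Rpl19 (0.11), Rpl17 (0.0474), Rps10 (0.0219), Rps3 (0.13), Rps2 (0.21), Rps6kb1 (0.25), Rack1 (0.16) and Ubtf (0.0888). With scaling to the ribosomal protein counts they did for Rpl10 (0.13), Rps27l (0.21), Rplp2 (0.0603), Rpl11 (0.019), Rpl5 (0.12), Rpl35 (2e-04), Rpl23a (0.0402), Rpl19 (0.17), Rpl17 (0.10), Rps10 (0.0737), Rps3 (0.18), Rps2 (0.25), Rps6kb1 (0.29), Rack1 (0.20), Ubtf (0.12) and Polr1d (0.021). Mtor stood at -0.0707 with the GC and length adjustment. Leaving out 1 library moved Ddit4 between -0.23 and 0.34 and Mtor between -0.0126 and 0.11. These 2 scalings differ from TMM by construction; for the other settings the cause was not tested. Same-numbered libraries correlated between -0.40 and 0.39, with 3 of 8 pairs over 0.1, so the numbers do not pair them. With the replicate block 60 members were lower and 0 higher, and 1 knockout library correlated best with its own number. Counts limit the paralogs: 3 counts were between 0.145 and 0.336 CPM.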
